A study of Homo sapiens with 18 samples.

Results

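The 45 G2/M and mitosis genes described here are genes whose products carry a cell from the end of DNA synthesis through division. They were taken from a list of gene symbols and found by Ensembl identifier, without its version, in the 2 deposited count tables. All 45 were present in both tables, among 60603 rows for H1650 and 60649 rows for PC9. The rule that picks them uses gene names only, but the genes were chosen with earlier results of these data known.

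The study asks what S100A9, a calcium-binding protein of the S100 family, does when EGFR-mutant lung cancer spreads to the brain. RNA was sequenced from H1650 and PC9, established human lung adenocarcinoma lines that carry mutant EGFR. Each line has 3 groups of 3 libraries, which the labels tell apart by condition (BrM or Tr-BrM) and treatment (control or S100A9-inh): BrM with control treatment, Tr-BrM with control treatment and Tr-BrM with S100A9-inh. They are called BrM control, Tr-BrM control and S100A9-inh below. Every library is thus BrM or Tr-BrM, and a parental group is not analysed here. What BrM and Tr stand for, the agent or method behind S100A9-inh and whether a line is 1 clone are not stated by the sources at hand. The labels do not say if replicate libraries are separate cultures, and the p-values below then measure only a spread between samples that may be technical.

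A cell enters mitosis when CDK1, bound to cyclin B, is released from inhibitory phosphorylation. PLK1 and the Aurora kinases then drive centrosome maturation, spindle assembly and chromosome attachment, and the spindle assembly checkpoint holds the anaphase-promoting complex (APC/C) inactive until every kinetochore is attached. Most of these genes are transcribed late in the cell cycle under the DREAM and MuvB complexes, B-MYB and FOXM1, which act through a promoter element called the cell cycle homology region (CHR) and neighbouring CCAAT boxes bound by NF-Y. Levels of their transcripts therefore rise and fall with the share of cells in G2 and mitosis in most proliferating populations, tumours included.

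The promoter windows of 6 genes are shown as examples of the CHR and CCAAT elements. These windows were picked for the most kinds of motif, then the most matches, so they are not typical of the set. The capitals mark matches, on either strand, to the CHR (TTTGAA or TTCGAA) and to the CCAAT box. They were read from the RefSeq promoter table (GRCh38.p14) for genes that the rule for values in every library takes, and each is cut to end before the annotated start, which leaves 196 bases for TOP2A and 200 for the others. HJURP, the chaperone that loads the centromeric histone, has its window at chr2:233854567-233854766 (minus strand). TOP2A, which untangles sister chromatids, has it at chr17:40417951-40418146 (minus strand). The window of CDC20, the activator of the APC/C, is chr1:43358755-43358954 (plus strand). CKS2, a small subunit of CDK complexes, has it at chr9:89310995-89311194 (plus strand). MKI67, the gene of the Ki-67 antigen that coats mitotic chromosomes, has it at chr10:128126424-128126623 (minus strand), and 1 of its CHR matches overlaps a CCAAT box. The window of CDK1, the kinase itself, is chr10:60778131-60778330 (plus strand).
HJURP: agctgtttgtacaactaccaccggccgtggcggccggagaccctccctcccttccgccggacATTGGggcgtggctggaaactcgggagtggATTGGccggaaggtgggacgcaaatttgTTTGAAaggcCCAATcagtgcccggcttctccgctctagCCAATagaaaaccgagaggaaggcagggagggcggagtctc
TOP2A: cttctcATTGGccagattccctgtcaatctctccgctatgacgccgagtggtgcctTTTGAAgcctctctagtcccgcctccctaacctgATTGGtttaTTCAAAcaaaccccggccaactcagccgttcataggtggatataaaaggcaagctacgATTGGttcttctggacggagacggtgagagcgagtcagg
CDC20: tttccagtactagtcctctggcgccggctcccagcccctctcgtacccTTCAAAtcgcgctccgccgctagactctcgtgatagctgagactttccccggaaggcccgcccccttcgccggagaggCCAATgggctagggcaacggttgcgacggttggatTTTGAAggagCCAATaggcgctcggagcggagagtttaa
CKS2: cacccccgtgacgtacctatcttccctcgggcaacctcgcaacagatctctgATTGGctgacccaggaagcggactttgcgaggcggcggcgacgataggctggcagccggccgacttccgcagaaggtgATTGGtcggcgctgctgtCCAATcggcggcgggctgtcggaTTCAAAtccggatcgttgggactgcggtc
MKI67: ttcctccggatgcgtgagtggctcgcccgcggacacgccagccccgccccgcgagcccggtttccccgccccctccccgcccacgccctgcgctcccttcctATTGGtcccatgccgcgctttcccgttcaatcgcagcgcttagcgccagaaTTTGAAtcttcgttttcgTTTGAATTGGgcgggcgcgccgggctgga
CDK1: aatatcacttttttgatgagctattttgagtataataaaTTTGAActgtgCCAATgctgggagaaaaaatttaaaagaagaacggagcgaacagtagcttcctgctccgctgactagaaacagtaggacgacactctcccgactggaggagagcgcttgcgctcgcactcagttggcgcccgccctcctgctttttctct

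Over the set, 37 of the 45 genes were in the promoter table, with 47 windows of 300 bases (250 before and 50 after the start). AURKA, BUB3, TTK, TPX2, RACGAP1, BIRC5, UBE2C and FOXM1 were not. A CHR was present in 33 of the 47 windows (70.2%), against 16.4% of all 35116 windows of the same length. A CCAAT box was present in 36 (76.6%), against 34.6% of all. Both stood together in 28 (59.6%), against 6.38% of all. An E2F site (TTTCCCGC, TTTCGCGC, TTTGCCGC or TTTGGCGC, on either strand) was present in 4 windows (8.51%), against 3.32% of all, and these belong to CDK1, CENPA and NUSAP1. Counted by gene, 30 of the 37 had a CHR in some window, and 31 had a CCAAT box. CCNA2, CCNB1, AURKB, PTTG1, CENPE, KIF2C and KIF20A had no CHR match, which says only that these letters are not in the window. The windows were richer in G and C than the rest, with 61.8% against 57.53%. The CHR lay close to the start, with 29 of 45 matches between -60 and 30 bases, and the CCAAT boxes lay further upstream, with 53 of 73 matches between -150 and -31. These matches are descriptions of sequence, with no test of binding in these data.

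**Figure D1:**
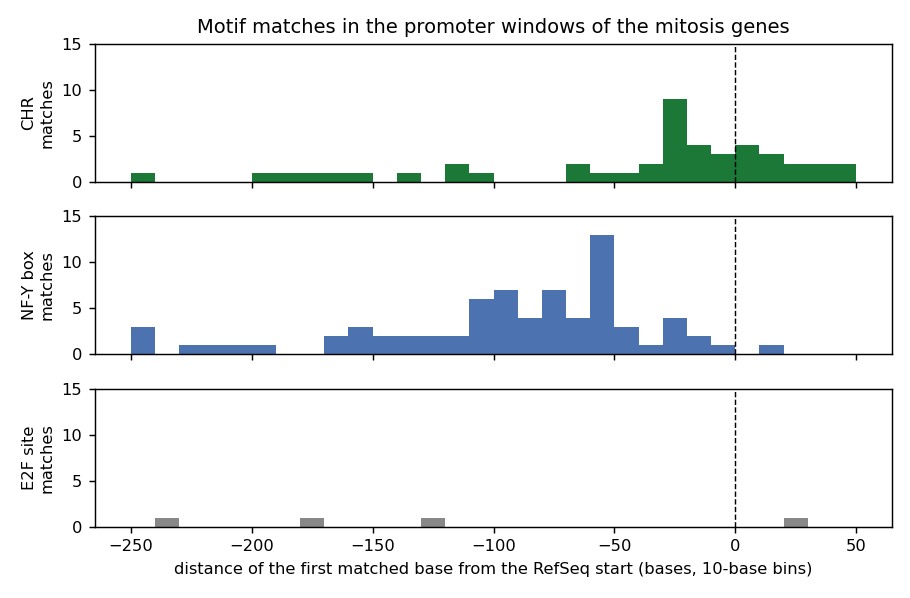
Motif matches in the 47 promoter windows of the mitosis genes (y axis, number of matches) by distance of the first matched base from the RefSeq start (x axis, bases, in bins of 10). The 45 CHR matches gather around the start (median -26 bases), the 73 CCAAT boxes (labelled NF-Y box) lie upstream of them (median -85 bases), and 4 E2F sites are spread.

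Levels are given as CPM, the count of a gene scaled to a common library size with TMM factors, in the order of replicates 1, 2 and 3, which are numbered by order of deposit. In the BrM controls the median level of the 45 genes was 102 CPM in H1650 and 85.6 CPM in PC9. For the order of the 45 genes given next, values per kilobase of exon (RPKM, on GENCODE 29 exon lengths) were compared. Levels set side by side in CPM elsewhere do not account for gene length. On that scale CKS2 was the most abundant in the BrM controls of both lines, at 178 RPKM in H1650 and 135 RPKM in PC9. TPX2, ANLN, UBE2C and CCNB1 followed in H1650, at 134, 112, 111 and 105 RPKM. UBE2C, CDC20, CCNB1 and TPX2 followed in PC9, at 130, 124, 89.6 and 72.3 RPKM. At the low end stood CDC25C, CENPE and KIF14 in H1650, at 4.08, 4.24 and 4.74 RPKM. CENPE, NUF2 and KIF14 were low in PC9, at 3.79, 4.24 and 4.82 RPKM.

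PRC1 and NUSAP1 stood far under the rest and are uncertain. PRC1, which bundles the microtubules of the central spindle, had 1.28 ± 0.447 CPM (SD, n = 3) in the H1650 BrM controls and 0.801 ± 0.234 CPM in the PC9 BrM controls. NUSAP1, a microtubule-binding protein of the spindle, had 0.424 ± 0.147 CPM and 0.429 ± 0.151 CPM. The lowest of the other 43 was at 13.6 CPM in H1650 and 14.2 CPM in PC9. In GENCODE 29, 57.6% of the exon bases of PRC1 (chr15:90966038-90995629) are shared with AC068831.7 on the same strand, which itself had 55 to 103 counts in H1650 and 109 to 156 in PC9. For NUSAP1 (chr15:41332694-41381050) it is 62.2%, shared with AC087721.2, which had 0 counts in every library. The part of this overlap in the low counts was not tested. NUSAP1 failed the filter on low counts in PC9, so 45 genes were tested in H1650 and 44 in PC9. Strand use in counting is not stated, and FOXM1 shares 15.9% of its exon bases with ITFG2 on the other strand, the largest such overlap among the rest with an expressed partner. PTTG1 and KIF4A have near-identical copies (PTTG2 and PTTG3P, and KIF4B), and RACGAP1 has a pseudogene, between which reads can be split.

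Libraries held 17403497 to 27112362 counts in H1650 and 18174516 to 21748732 in PC9. S100A9 itself followed its labels: it had 217, 206 and 199 CPM in the H1650 BrM controls, 336, 293 and 292 in the Tr-BrM controls and 95.2, 88.2 and 105 in S100A9-inh. In PC9 it had 119, 127 and 119.7, 739, 738 and 759 and 33.9, 30.4 and 35.5 CPM. Replicate 1 of PC9 S100A9-inh stood apart from the other two, with a chi-square per degree of freedom over genes of 6.51 and 5.85 against them, where they had 2.05 with each other. Calls of the set that change without it are given beside the gene. Some other libraries also stood apart, by less. H1650 S100A9-inh replicate 2 had 3.89 and 3.24, against 2.25 between the other replicates. H1650 Tr-BrM control replicate 1 had 3.11 and 3.28, against 2.13. PC9 Tr-BrM control replicate 1 had 3.06 and 2.75, against 1.76. All 7 epithelial markers were present, summing over the 3 groups in order to 11263 to 11316, 9404 to 9723 and 9165 to 9514 CPM in H1650 and to 27058 to 27511, 21405 to 21894 and 22125 to 24280 CPM in PC9. Markers of other cells moved with the groups too. In H1650 the 7 astrocyte genes summed to 35.1 to 43.1, 267 to 276 and 211 to 223 CPM, with SLC1A3 highest, GFAP at 52.9 to 74.2 CPM in the Tr-BrM controls and AQP4 under 1 CPM. The 6 fibroblast genes summed to 23.1 to 23.3, 159 to 179.7 and 181 to 189 CPM there, mostly COL3A1. The 7 microglia and leukocyte genes summed to 91.7 to 93.7, 94.7 to 99.9 and 107 to 113 CPM with CD68 under 1 CPM, and the 5 endothelial genes to 2.12 to 5.19, 6.90 to 8.63 and 7.44 to 12.4 CPM. In PC9 the astrocyte genes summed to 15.5 to 16.6, 97.7 to 103 and 34.2 to 37.7 CPM, nearly all of it SLC1A3, with S100B at 0 counts in every library and GFAP under 1 CPM. The fibroblast genes there summed to 26.7 to 27.2, 12.8 to 15.1 and 17.3 to 20.1 CPM with LUM at 0. The microglia and leukocyte genes summed to 32.1 to 32.8, 15.6 to 16.6 and 21.6 to 26.0 CPM with TYROBP at 0, and the endothelial genes to 22.9 to 26.6, 40.3 to 41.2 and 23.5 to 28.2 CPM. The part of these markers in the results below was not tested.

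The mitosis genes together took a larger share of reads in the Tr-BrM controls than in the BrM controls of both lines, and an intermediate share in S100A9-inh. In H1650 the 3 BrM controls had 0.583, 0.580 and 0.577% of their reads on the 45 genes, the Tr-BrM controls 0.812, 0.816 and 0.814%, and S100A9-inh 0.679, 0.666 and 0.681%. The 3 groups did not overlap. In PC9 the shares were 0.480, 0.475 and 0.485%, then 0.645, 0.666 and 0.663%, then 0.592, 0.632 and 0.635%. Again no groups overlapped, but the gap between the lowest Tr-BrM control and the highest S100A9-inh library was smaller than the spread within S100A9-inh, where replicate 1 was lowest. The share of mitochondrial transcripts also differed between groups: it was 3.31 to 3.39%, 3.94 to 4.04% and 3.85 to 4.07% in H1650, and 6.68 to 6.78%, 6.87 to 6.93% and 5.67 to 5.997% in PC9. In bulk RNA, more cells in G2 and mitosis and more of these transcripts per cell cannot be told apart.

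**Figure D2:**
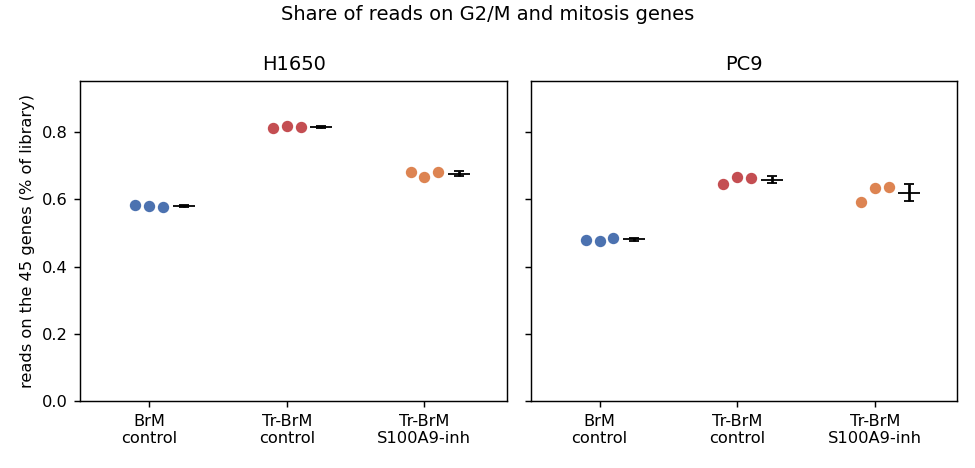
Percent of each library's reads on the 45 mitosis genes (y axis) by group (x axis) in H1650 and PC9, with 1 point per library and the mean ± SD (n = 3) as a bar beside them. H1650 goes from 0.580 ± 0.00295% in the BrM controls to 0.814 ± 0.00216% in the Tr-BrM controls and 0.676 ± 0.00819% in S100A9-inh, and PC9 from 0.480 ± 0.00510% to 0.658 ± 0.0116% and 0.619 ± 0.0239%.

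All changes below are log2 fold changes ± SE from edgeR's quasi-likelihood test, with p-values adjusted by Benjamini-Hochberg over all genes tested in the line and a threshold of 0.05. Comparisons within a line share libraries and are given side by side.

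Between Tr-BrM control and BrM control most mitosis genes rose in both lines. In H1650, 37 of the 45 were higher, 3 were lower and 5 did not pass, where 32.2% of all 17937 genes tested were higher and 31.7% lower. Their median change was 0.43, against -0.0011 over all genes. In PC9, 37 of 44 were higher, 2 were lower and 5 did not pass, where 29.6% of all 16169 genes were higher and 30.3% lower. The median there was 0.38, against 0.0014 over all genes. AURKA, TOP2A and CCNA2 rose most in H1650, and ANLN, NUF2 and CDC20 in PC9. The genes that fell were CDK1, ANLN and PTTG1 in H1650 and AURKB and FOXM1 in PC9. Of the rises, 19 of 37 in H1650 and 17 of 37 in PC9 reached a log2 change of 0.5. The share of all genes at that cut was not counted. The median absolute change over all genes was 0.38 in H1650 and 0.36 in PC9, so such changes are not particular to the set.

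**Figure D3:**
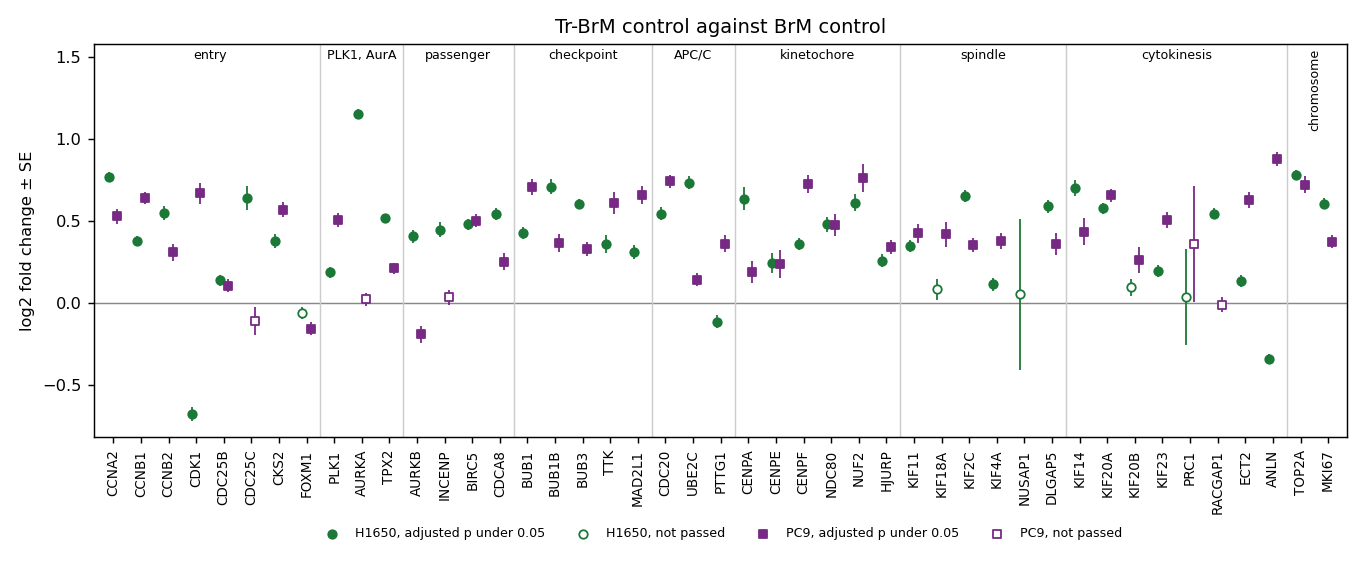
Log2 fold change ± SE (y axis) of each mitosis gene (x axis, grouped by role) between Tr-BrM control and BrM control, in H1650 (circles) and PC9 (squares), filled where the adjusted p is under 0.05. Most points lie between 0 and 0.8; AURKA reaches 1.15 in H1650 alone, and CDK1 and ANLN are under 0 in H1650 and above 0 in PC9.

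Between S100A9-inh and the Tr-BrM control the same set went down in H1650 and was mixed in PC9. In H1650, 33 of 45 were lower, 0 were higher and 12 did not pass, where 15.4% of all genes were higher and 13.8% lower (2762 and 2468 genes, or 2201 and 3193 when scaled by library size alone). No gene of the set was higher at an unadjusted p under 0.05 in edgeR (0), nor by DESeq2 (0) or limma-voom (0) after adjustment. The median change was -0.23, against -0.0009 over all genes. In PC9, 23 of 44 were lower, 9 were higher and 12 did not pass, where 26.3% of all genes were higher and 26.1% lower. Thus 20.5% of the set was higher, under the share over all genes, and 52.3% lower. The median was -0.15, against -0.0022 over all genes. AURKA, CDC25C and CKS2 fell most in H1650, and KIF20B, CENPF and KIF23 in PC9. CDC25C, INCENP and FOXM1 rose most in PC9. Fewer of these changes reached a log2 change of 0.5: 0 of the 33 falls in H1650, and in PC9 0 of the falls and 1 rise. The share of all genes at that cut was not counted here either. Without replicate 1 of PC9 S100A9-inh, 20 were lower and 10 higher. Without replicate 2 of H1650 S100A9-inh, 1 gene was higher in H1650, CENPE, at 0.17.

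**Figure D4:**
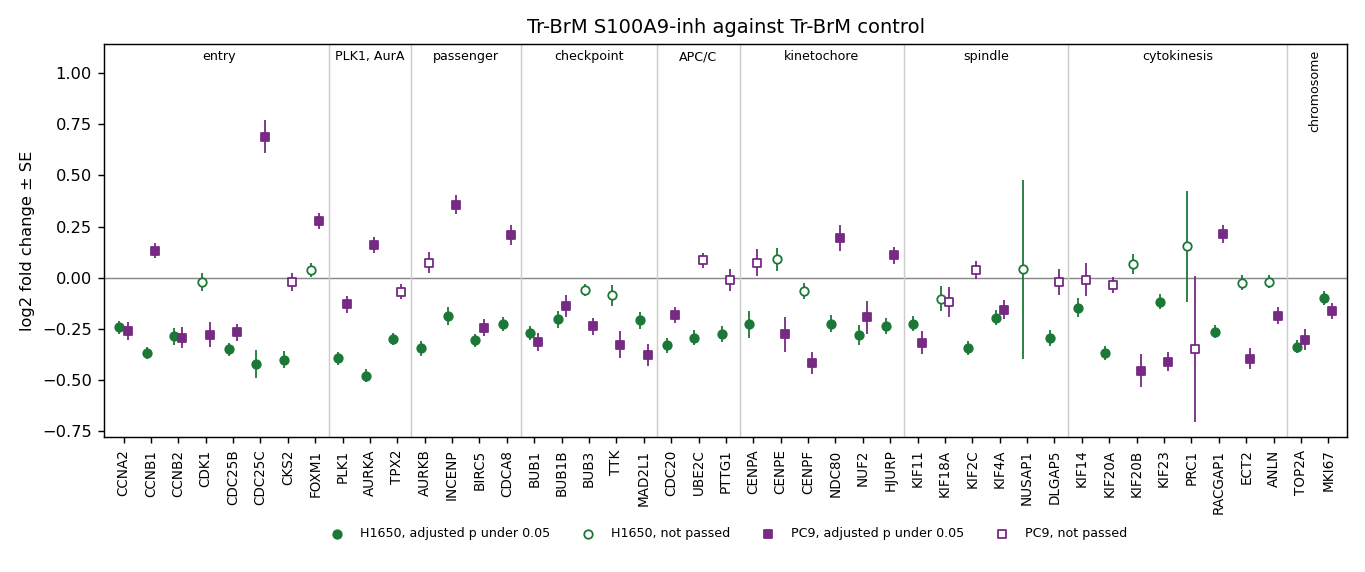
Log2 fold change ± SE (y axis) of each mitosis gene (x axis, grouped by role) between S100A9-inh and the Tr-BrM control, in H1650 (circles) and PC9 (squares), filled where the adjusted p is under 0.05. The filled circles are all below 0, while the filled squares fall on both sides, with CDC25C highest at 0.69.

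Set against the BrM control, S100A9-inh libraries still had higher levels of most of the set. In H1650, 30 of 45 were higher, 5 lower and 10 did not pass, where 32.5% of all genes were higher and 31.2% lower. In PC9, 35 of 44 were higher, 2 lower and 7 did not pass, where 22.7% of all genes were higher and 23.6% lower. The median changes were 0.21 and 0.28, against 0.0004 and 0.0037 over all genes. The 5 lower genes in H1650 were CDK1, PTTG1, ANLN, CDC25B and PLK1, and the 2 in PC9 were CDC25B and KIF20B. Without replicate 1 of PC9 S100A9-inh the 2 lower genes there were CDC25B and AURKB (-0.16, adjusted p = 0.00489), KIF20B did not pass (-0.053), and KIF11 was higher (0.19, adjusted p = 5.57e-04). AURKA, KIF14 and BUB3 rose most in H1650, and CCNB1, ANLN and NDC80 in PC9.

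The genes of entry into mitosis are the cyclins A2, B1 and B2, CDK1, the phosphatases CDC25B and CDC25C that activate it, CKS2 and the transcription factor FOXM1. Of these 8, 6 rose and 1 fell between the control groups in H1650, and 6 rose and 1 fell in PC9. Between these groups 32.2% of all genes were higher and 31.7% lower in H1650, and 29.6% and 30.3% in PC9. From Tr-BrM control to S100A9-inh the shares were 15.4% and 13.8% in H1650, and 26.3% and 26.1% in PC9. These shares belong beside the counts of every role below. Each role holds 2 to 8 genes, too few to set against them. Their summed level was 937 to 961, 1136 to 1155 and 931 to 953 CPM in the 3 groups of H1650, and 872 to 881, 1160 to 1175 and 1125 to 1164 CPM in those of PC9. In H1650 the sum in S100A9-inh thus overlapped the BrM controls, while in PC9 it overlapped the Tr-BrM controls.

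CCNB1 (chr5:69167010-69178245), the cyclin that activates CDK1, had 274, 269 and 264 CPM for BrM control, 349.9, 349 and 349 CPM for Tr-BrM control and 268, 271 and 273 CPM for S100A9-inh in H1650. In PC9, CCNB1 stood at 227, 228 and 233 CPM for BrM control, 364, 357 and 349.6 CPM for Tr-BrM control and 396, 378 and 398 CPM for S100A9-inh. In both lines the Tr-BrM controls were above all BrM controls, but S100A9-inh returned to the BrM range in H1650 and lay above every Tr-BrM control in PC9. Between the control groups the change was 0.38 ± 0.029 (adjusted p = 3.99e-12) in H1650 and 0.64 ± 0.036 (adjusted p = 1.08e-15) in PC9. From Tr-BrM control to S100A9-inh it was -0.37 ± 0.029 (adjusted p = 6.40e-11) in H1650 and 0.13 ± 0.036 (adjusted p = 0.00245) in PC9. Against the BrM control, S100A9-inh differed by 0.0094 ± 0.030 (adjusted p = 0.801) in H1650 and 0.77 ± 0.036 (adjusted p = 2.18e-17) in PC9, the latter the largest rise of the set there.

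CDK1 (chr10:60778331-60794852), the mitotic kinase, had 115, 109 and 109 CPM for BrM control, 67.7, 70.6 and 69.8 CPM for Tr-BrM control and 70.0, 62.7 and 72.3 CPM for S100A9-inh in H1650. In PC9, CDK1 stood at 109.9, 118 and 113 CPM for BrM control, 169, 184 and 189 CPM for Tr-BrM control and 124, 159 and 164 CPM for S100A9-inh. The Tr-BrM controls were below every BrM control in H1650 and above every one in PC9. The change between the control groups was -0.68 ± 0.045 (adjusted p = 1.00e-13) in H1650 and 0.67 ± 0.064 (adjusted p = 1.76e-10) in PC9. In H1650 it is the only gene of the set that fell by more than 0.5, and S100A9-inh stayed at the level of the Tr-BrM controls, with -0.021 ± 0.046 (adjusted p = 0.786). In PC9 it fell in S100A9-inh, by -0.28 ± 0.063 (adjusted p = 4.18e-04), with replicate 1 lowest, and by -0.16 without it (adjusted p = 3.21e-04). S100A9-inh against BrM control gave -0.70 ± 0.044 (adjusted p = 3.91e-14) in H1650 and 0.39 ± 0.064 (adjusted p = 7.80e-06) in PC9, and 0.51 in PC9 without replicate 1.

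CCNA2, the cyclin that acts from S phase to early mitosis, had 103, 103 and 105 CPM for BrM control, 178, 174 and 179 CPM for Tr-BrM control and 150.0, 147 and 151 CPM for S100A9-inh in H1650. In PC9, CCNA2 stood at 106, 106 and 105 CPM for BrM control, 146, 162 and 149 CPM for Tr-BrM control and 124, 133 and 125 CPM for S100A9-inh. In both lines the BrM controls were lowest and the Tr-BrM controls highest, without overlap. The rise between the control groups was 0.77 ± 0.033 (adjusted p = 4.87e-18) and 0.53 ± 0.046 (adjusted p = 1.83e-11). The fall from there to S100A9-inh was alike, -0.24 ± 0.032 (adjusted p = 6.83e-07) and -0.26 ± 0.045 (adjusted p = 1.34e-05). CCNB2, the second B-type cyclin, rose by 0.55 and 0.31 and fell by 0.29 in both lines in S100A9-inh.

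CDC25C (chr5:138285265-138338355), a phosphatase that activates CDK1 at mitotic entry, had 13.1, 14.4 and 13.3 CPM for BrM control, 21.4, 21.9 and 20.2 CPM for Tr-BrM control and 15.6, 15.4 and 16.4 CPM for S100A9-inh in H1650. In PC9, CDC25C stood at 18.2, 17.6 and 19.9 CPM for BrM control, 17.1, 18.7 and 15.8 CPM for Tr-BrM control and 26.9, 27.2 and 29.3 CPM for S100A9-inh. In H1650 the Tr-BrM controls were highest, and in PC9 the S100A9-inh libraries were, each without overlap with the other groups. Between the control groups the change was 0.64 ± 0.073 (adjusted p = 1.16e-08) in H1650 and -0.11 ± 0.084 (adjusted p = 0.260) in PC9. In S100A9-inh it fell by 0.42 ± 0.069 (adjusted p = 2.16e-05) in H1650 and rose by 0.69 ± 0.080 (adjusted p = 1.67e-08) in PC9, the largest rise of the set there and 0.71 without replicate 1. CDC25C shares 8.78% of its exon bases with FAM53C on the other strand.

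CDC25B, the related phosphatase that acts earlier in G2, had 177, 176 and 176 CPM for BrM control, 198, 193 and 191 CPM for Tr-BrM control and 151, 153 and 152 CPM for S100A9-inh in H1650. In PC9, CDC25B stood at 137, 134 and 132 CPM for BrM control, 151, 140.5 and 142 CPM for Tr-BrM control and 122, 119 and 119 CPM for S100A9-inh. In both lines S100A9-inh was below every library of both control groups. The change to S100A9-inh was -0.35 ± 0.031 (adjusted p = 5.61e-10) and -0.27 ± 0.043 (adjusted p = 3.58e-06) from the Tr-BrM control, and -0.21 ± 0.031 (adjusted p = 9.04e-07) and -0.16 ± 0.043 (adjusted p = 0.00222) from the BrM control.

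CKS2 had 114, 106 and 106 CPM for BrM control, 147, 137 and 142 CPM for Tr-BrM control and 101, 112 and 109.7 CPM for S100A9-inh in H1650. In PC9, CKS2 stood at 79.3, 87.1 and 81.6 CPM for BrM control, 122, 123 and 123 CPM for Tr-BrM control and 124, 119 and 120.2 CPM for S100A9-inh. S100A9-inh overlapped the BrM controls in H1650 and was level with the Tr-BrM controls in PC9. The change from Tr-BrM control to S100A9-inh was -0.40 ± 0.040 (adjusted p = 7.20e-09) in H1650 and -0.020 ± 0.044 (adjusted p = 0.728) in PC9. The rises between the control groups were 0.38 and 0.57.

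FOXM1, which activates many genes of this set, did not rise with them. It had 100.5, 104 and 101 CPM for BrM control, 99.2, 98.2 and 95.6 CPM for Tr-BrM control and 102, 98.5 and 100.3 CPM for S100A9-inh in H1650. In PC9, FOXM1 stood at 144, 139.8 and 147 CPM for BrM control, 130.2, 128 and 128 CPM for Tr-BrM control and 158, 154 and 157 CPM for S100A9-inh. In H1650 the Tr-BrM controls lay just under the BrM controls and S100A9-inh overlapped both, while in PC9 the Tr-BrM controls were lowest and S100A9-inh highest. Between the control groups the change was -0.061 ± 0.037 (adjusted p = 0.146) in H1650 and -0.16 ± 0.040 (adjusted p = 0.00120) in PC9. From Tr-BrM control to S100A9-inh it was 0.038 ± 0.036 (adjusted p = 0.477) and 0.28 ± 0.040 (adjusted p = 7.83e-07).

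**Figure D5:**
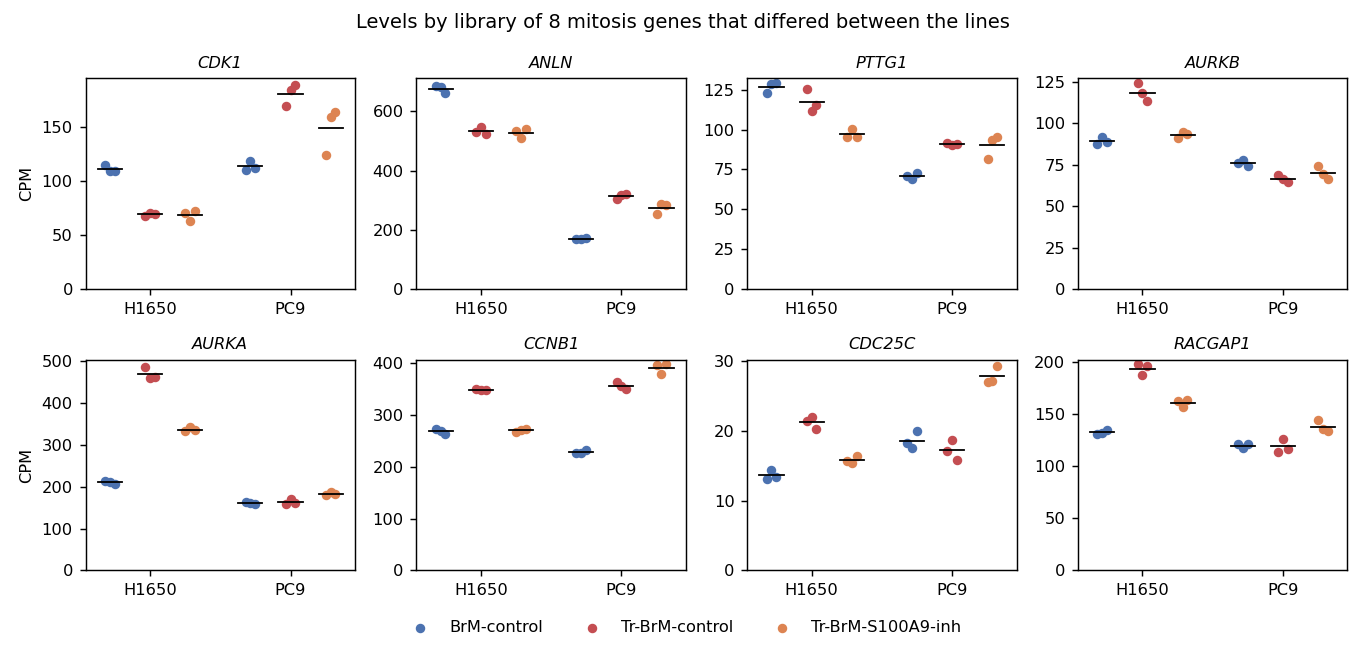
Level in CPM (y axis, from 0) of 8 mitosis genes in each library of H1650 and PC9 (x axis), with points coloured by group and a line at the mean of 3. CDK1 and ANLN are lower in the Tr-BrM controls than in the BrM controls in H1650 and higher in PC9. PTTG1 goes the same way by its means, but its H1650 control groups overlap. AURKB is the reverse of CDK1 and ANLN. AURKA, CCNB1, CDC25C and RACGAP1 go down in S100A9-inh in H1650 and up in PC9.

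PLK1, the kinase of centrosome maturation and mitotic exit, and Aurora A with its spindle activator TPX2 all rose between the control groups in H1650, and 2 of the 3 in PC9. All 3 fell in S100A9-inh in H1650. In PC9 1 rose, 1 fell and 1 did not pass, where 26.3% of all genes were higher and 26.1% lower.

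AURKA (chr20:56369389-56392337), Aurora A, had 214, 212 and 206 CPM for BrM control, 486, 458 and 462 CPM for Tr-BrM control and 332, 341 and 335 CPM for S100A9-inh in H1650. In PC9, AURKA stood at 163, 160.4 and 158 CPM for BrM control, 159.7, 170.4 and 159.9 CPM for Tr-BrM control and 179, 187 and 182 CPM for S100A9-inh. The H1650 groups lay far apart, with the Tr-BrM controls over 2 times the BrM controls and S100A9-inh between them, while in PC9 the control groups overlapped and S100A9-inh lay above both. The change between the control groups was 1.15 ± 0.032 (adjusted p = 1.21e-22) in H1650, a 2.22-fold rise and the largest of the set, and 0.023 ± 0.040 (adjusted p = 0.641) in PC9. To S100A9-inh it was -0.48 ± 0.031 (adjusted p = 7.53e-13) in H1650 and 0.16 ± 0.040 (adjusted p = 0.00120) in PC9. Against the BrM control, S100A9-inh was at 0.67 ± 0.032 (adjusted p = 4.44e-17) in H1650 and 0.18 ± 0.040 (adjusted p = 3.35e-04) in PC9.

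PLK1 had 212, 216 and 212 CPM for BrM control, 248, 240.3 and 241 CPM for Tr-BrM control and 179.7, 190.1 and 185 CPM for S100A9-inh in H1650. In PC9, PLK1 stood at 128, 127 and 126 CPM for BrM control, 187, 181 and 175 CPM for Tr-BrM control and 173, 168 and 154 CPM for S100A9-inh. In H1650 S100A9-inh was below every BrM control, and in PC9 above every one. The change from BrM control to S100A9-inh was accordingly -0.21 ± 0.032 (adjusted p = 1.67e-06) in H1650 and 0.38 ± 0.044 (adjusted p = 2.24e-08) in PC9. From Tr-BrM control it was -0.39 ± 0.032 (adjusted p = 7.45e-11) and -0.13 ± 0.043 (adjusted p = 0.0120), of which the PC9 fall did not pass without replicate 3 of S100A9-inh (-0.087).

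TPX2 had 487, 483 and 478 CPM for BrM control, 689, 697 and 686 CPM for Tr-BrM control and 549.5, 568 and 564 CPM for S100A9-inh in H1650. In PC9, TPX2 stood at 260.3, 266 and 255 CPM for BrM control, 297, 303 and 305 CPM for Tr-BrM control and 282, 289 and 291 CPM for S100A9-inh. The order of the groups was the same in both lines, without overlap, and the distances were smaller in PC9. The changes between the control groups were 0.52 ± 0.028 (adjusted p = 1.18e-15) and 0.21 ± 0.036 (adjusted p = 7.68e-06). To S100A9-inh they were -0.30 ± 0.028 (adjusted p = 1.41e-09) and -0.069 ± 0.036 (adjusted p = 0.106).

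The chromosomal passenger complex, which corrects wrong attachments and later directs cytokinesis, is made of Aurora B (AURKB), its scaffold INCENP, survivin (BIRC5) and borealin (CDCA8). All 4 rose between the control groups in H1650 and fell in S100A9-inh. In PC9, 2 rose and 1 fell between the control groups, where 29.6% of all genes were higher and 30.3% lower. In S100A9-inh there, 2 rose and 1 fell, where 26.3% of all genes were higher and 26.1% lower. The 4 genes are too few to set against these shares.

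AURKB had 87.6, 91.7 and 88.8 CPM for BrM control, 124, 118 and 113 CPM for Tr-BrM control and 90.9, 94.8 and 93.8 CPM for S100A9-inh in H1650. In PC9, AURKB stood at 76.2, 77.7 and 74.0 CPM for BrM control, 68.5, 66.6 and 64.4 CPM for Tr-BrM control and 74.3, 69.2 and 66.3 CPM for S100A9-inh. The Tr-BrM controls were highest in H1650 and below every BrM control in PC9. The change between the control groups was 0.41 ± 0.039 (adjusted p = 3.58e-10) in H1650 and -0.19 ± 0.052 (adjusted p = 0.00190) in PC9, and to S100A9-inh -0.35 ± 0.038 (adjusted p = 3.59e-08) and 0.074 ± 0.052 (adjusted p = 0.242). BIRC5 had 153, 152 and 157 CPM for BrM control, 222, 212 and 211 CPM for Tr-BrM control and 172, 173 and 176 CPM for S100A9-inh in H1650. In PC9, BIRC5 stood at 136, 134 and 131 CPM for BrM control, 187, 191 and 190.3 CPM for Tr-BrM control and 153, 159.5 and 168 CPM for S100A9-inh. Here the lines were alike, with the Tr-BrM controls highest and S100A9-inh between, at -0.31 ± 0.032 (adjusted p = 1.41e-08) and -0.24 ± 0.041 (adjusted p = 7.97e-06) from the Tr-BrM control.

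INCENP had 76.1, 77.4 and 75.3 CPM for BrM control, 95.4, 108 and 108 CPM for Tr-BrM control and 90.6, 93.7 and 89.8 CPM for S100A9-inh in H1650. In PC9, INCENP stood at 119.5, 115 and 118 CPM for BrM control, 117, 121 and 122 CPM for Tr-BrM control and 166, 149 and 146 CPM for S100A9-inh. Every Tr-BrM control exceeded every S100A9-inh library in H1650, and in PC9 every S100A9-inh library exceeded all controls, with replicate 1 highest. The change to S100A9-inh was -0.19 ± 0.042 (adjusted p = 9.53e-04) in H1650 and 0.36 ± 0.046 (adjusted p = 1.15e-07) in PC9, or 0.30 in PC9 without replicate 1. CDCA8 had 76.9, 78.5 and 78.3 CPM for BrM control, 116, 111 and 114 CPM for Tr-BrM control and 98.5, 95.5 and 96.9 CPM for S100A9-inh in H1650. In PC9, CDCA8 stood at 60.9, 61.6 and 62.8 CPM for BrM control, 70.1, 73.8 and 76.6 CPM for Tr-BrM control and 87.5, 81.8 and 85.8 CPM for S100A9-inh. It too was highest in the Tr-BrM controls in H1650 and in S100A9-inh in PC9, with changes of -0.23 ± 0.035 (adjusted p = 8.83e-06) and 0.21 ± 0.049 (adjusted p = 6.63e-04).

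The spindle assembly checkpoint genes, the kinases TTK and BUB1, their partners BUB3 and BUB1B and the inhibitor MAD2L1, moved together. All 5 rose between the control groups in H1650 and in PC9, with medians of 0.43 and 0.61. In S100A9-inh 3 fell and 2 did not pass in H1650, and all 5 fell in PC9, with a median of -0.32. Their summed level was 456 to 470, 656 to 673 and 586 to 609 CPM in H1650 and 355 to 364, 501 to 509 and 416 to 422 CPM in PC9, without overlap of any groups.

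BUB3, which brings BUB1 and BUB1B to kinetochores, had 199, 198 and 198 CPM for BrM control, 304, 299 and 301 CPM for Tr-BrM control and 293, 282 and 291 CPM for S100A9-inh in H1650. In PC9, BUB3 stood at 163, 159.7 and 163 CPM for BrM control, 206, 203 and 202 CPM for Tr-BrM control and 184, 166 and 168 CPM for S100A9-inh. S100A9-inh stayed near the Tr-BrM controls in H1650, and in PC9 2 of its libraries were just above the BrM controls and replicate 1 between the control groups. BUB3 changed to S100A9-inh by -0.060 ± 0.030 (adjusted p = 0.133) in H1650, which passed with library size alone (-0.095), and -0.24 ± 0.041 (adjusted p = 1.33e-05) in PC9. From BrM to Tr-BrM control it was 0.60 ± 0.031 (adjusted p = 2.05e-16) and 0.33 ± 0.041 (adjusted p = 4.40e-08). BUB1 rose by 0.43 in H1650 and 0.71 in PC9, BUB1B by 0.71 and 0.36, the kinase TTK by 0.36 and 0.61, and MAD2L1 by 0.31 and 0.66. The falls of these 4 in PC9 S100A9-inh ran from -0.14 for BUB1B to -0.38 for MAD2L1, and that of BUB1B did not pass without S100A9-inh replicate 1 or 2 or Tr-BrM control replicate 2, with values up to -0.11, nor with upper quartile scaling, library size alone, no filter or a fit of only 2 groups.

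At the exit from mitosis stand CDC20, the activator of the APC/C, UBE2C, its ubiquitin-conjugating enzyme, and PTTG1, securin, whose destruction frees separase. CDC20 had 191, 193 and 205 CPM for BrM control, 295, 270.4 and 295 CPM for Tr-BrM control and 219, 232 and 231 CPM for S100A9-inh in H1650. In PC9, CDC20 stood at 248, 258 and 252 CPM for BrM control, 445, 413 and 410.4 CPM for Tr-BrM control and 394, 359 and 365 CPM for S100A9-inh. The groups did not overlap in either line and had the same order, with S100A9-inh between the controls. The rise between the control groups was 0.55 ± 0.037 (adjusted p = 2.16e-13) and 0.74 ± 0.040 (adjusted p = 4.06e-16), and the fall to S100A9-inh -0.33 ± 0.037 (adjusted p = 3.66e-08) and -0.18 ± 0.040 (adjusted p = 2.94e-04).

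UBE2C had 144, 146 and 137 CPM for BrM control, 253, 222 and 237 CPM for Tr-BrM control and 191, 194 and 195 CPM for S100A9-inh in H1650. In PC9, UBE2C stood at 170.4, 162 and 167 CPM for BrM control, 186, 183 and 183 CPM for Tr-BrM control and 194, 197 and 193 CPM for S100A9-inh. The rise between the control groups was large in H1650, at 0.73 ± 0.039 (adjusted p = 6.08e-16), and small in PC9, at 0.14 ± 0.038 (adjusted p = 0.00192). S100A9-inh was between the controls in H1650 and above both in PC9, with -0.29 ± 0.038 (adjusted p = 4.85e-07) and 0.085 ± 0.038 (adjusted p = 0.0629) from the Tr-BrM control. The PC9 value passed as a rise without S100A9-inh replicate 1 (0.088, adjusted p = 0.0319), with upper quartile scaling (0.10), with library size alone (0.11) and with a minimum of 5 CPM (0.093). PTTG1 had 123, 129 and 129 CPM for BrM control, 126, 112 and 115 CPM for Tr-BrM control and 95.1, 101 and 95.2 CPM for S100A9-inh in H1650. In PC9, PTTG1 stood at 70.8, 68.7 and 72.7 CPM for BrM control, 91.6, 90.5 and 90.7 CPM for Tr-BrM control and 81.8, 93.4 and 95.6 CPM for S100A9-inh. In H1650 replicate 1 of the Tr-BrM controls lay among the BrM controls, while in PC9 the control groups did not overlap. The change between the control groups was -0.11 ± 0.041 (adjusted p = 0.0169) in H1650 and 0.36 ± 0.053 (adjusted p = 6.61e-07) in PC9. The H1650 fall did not pass when BrM control replicate 2 or 3 or Tr-BrM control replicate 2 or 3 was left out, with values of -0.11 to -0.074, nor with upper quartile scaling (-0.092, adjusted p = 0.0523), library size alone (-0.031, adjusted p = 0.524) or a minimum of 5 CPM (-0.086, adjusted p = 0.0636). S100A9-inh was lowest of all in H1650, at -0.39 ± 0.041 (adjusted p = 2.33e-09) from the BrM control, and above the BrM controls in PC9, at 0.35 ± 0.053 (adjusted p = 1.95e-06).

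Genes of the centromere and kinetochore all rose between the control groups, 6 of 6 in each line. They are CENPA, the centromeric histone, its chaperone HJURP, the microtubule-binding NDC80 and NUF2, the motor CENPE and the outer kinetochore protein CENPF. In S100A9-inh, 4 fell in H1650 and none rose (0), where 13.8% of all genes were lower and 15.4% higher. In PC9 3 fell and 2 rose, where 26.1% of all genes were lower and 26.3% higher. In PC9 the rise of CENPE between the control groups, 0.24, did not pass without BrM control replicate 2 (0.19) or Tr-BrM control replicate 2 (0.20), and that of CENPA, 0.19, did not pass without BrM control replicate 1 (0.16).

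CENPF had 165, 165 and 163 CPM for BrM control, 203, 218 and 210.4 CPM for Tr-BrM control and 212, 187 and 205 CPM for S100A9-inh in H1650. In PC9, CENPF stood at 223, 220.2 and 231 CPM for BrM control, 350.3, 378 and 387 CPM for Tr-BrM control and 242, 302 and 291 CPM for S100A9-inh. In PC9 replicate 1 of S100A9-inh was far below the other two, but all 3 were below the Tr-BrM controls. The change to S100A9-inh was -0.42 ± 0.053 (adjusted p = 7.43e-08) in PC9, -0.33 without replicate 1, and -0.066 ± 0.038 (adjusted p = 0.202) in H1650, where it passed with library size alone (-0.10, adjusted p = 0.0468). Between the control groups it was 0.36 ± 0.039 (adjusted p = 3.27e-09) in H1650 and 0.73 ± 0.053 (adjusted p = 4.93e-13) in PC9. CENPE moved likewise in PC9 S100A9-inh, at -0.28 ± 0.084 (adjusted p = 0.00648), and that fall did not pass without replicate 1 (-0.14).

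NUF2 had 29.8, 29.7 and 29.9 CPM for BrM control, 45.7, 46.4 and 44.4 CPM for Tr-BrM control and 39.6, 35.8 and 36.9 CPM for S100A9-inh in H1650. In PC9, NUF2 stood at 14.7, 13.8 and 14.2 CPM for BrM control, 23.5, 24.6 and 24.4 CPM for Tr-BrM control and 18.6, 22.6 and 22.2 CPM for S100A9-inh. The control groups did not overlap in either line, with rises of 0.61 ± 0.053 (adjusted p = 3.93e-11) and 0.76 ± 0.084 (adjusted p = 3.30e-09). Its PC9 fall in S100A9-inh, -0.19 ± 0.080 (adjusted p = 0.0416), did not pass without S100A9-inh replicate 1 or Tr-BrM control replicate 2 or 3, with values up to -0.11, nor with upper quartile scaling, library size alone, no filter, DESeq2 or a fit of only 2 groups. NDC80, its partner, had 62.4, 58.9 and 65.2 CPM for BrM control, 87.1, 86.2 and 86.0 CPM for Tr-BrM control and 75.5, 71.0 and 75.2 CPM for S100A9-inh in H1650. In PC9, NDC80 stood at 44.2, 42.9 and 44.7 CPM for BrM control, 58.4, 63.5 and 61.5 CPM for Tr-BrM control and 60.6, 77.4 and 71.98 CPM for S100A9-inh. In H1650 all S100A9-inh libraries were below the Tr-BrM controls, and in PC9 replicate 1 lay among the Tr-BrM controls and the other two above them. The change to S100A9-inh was -0.23 ± 0.041 (adjusted p = 9.32e-05) in H1650 and 0.19 ± 0.064 (adjusted p = 0.0115) in PC9, the latter 0.29 without replicate 1 and not past the threshold without replicate 2 (0.11) or without Tr-BrM control replicate 1 (0.16). From the BrM control it was 0.67 ± 0.066 (adjusted p = 6.17e-10) in PC9.

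HJURP had 82.5, 80.8 and 82.3 CPM for BrM control, 100.4, 96.0 and 97.7 CPM for Tr-BrM control and 86.8, 80.4 and 81.9 CPM for S100A9-inh in H1650. In PC9, HJURP stood at 112, 107 and 109.9 CPM for BrM control, 139, 139 and 139 CPM for Tr-BrM control and 152, 144 and 153 CPM for S100A9-inh. S100A9-inh overlapped the BrM controls in H1650 and was above the Tr-BrM controls in PC9. To S100A9-inh, HJURP changed by -0.24 ± 0.038 (adjusted p = 1.75e-05) and 0.11 ± 0.041 (adjusted p = 0.0275), and the PC9 rise did not pass without any 1 of the 3 Tr-BrM controls or S100A9-inh replicate 3, with a lowest value of 0.091, nor without a filter (0.104) or in a fit of only 2 groups (0.108). CENPA rose between the control groups by 0.64 in H1650 and 0.19 in PC9. Its fall of 0.23 in H1650 S100A9-inh did not pass without Tr-BrM control replicate 3, the highest library at 49.7 CPM, or without S100A9-inh replicate 3, with values up to -0.12.

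Among the spindle motors and microtubule binders, KIF11 pushes the poles apart, KIF18A and KIF2C limit or shorten microtubules, KIF4A moves on chromosomes and DLGAP5 stabilises kinetochore fibres. Of the 6 with NUSAP1, 4 rose in H1650, and all 5 tested rose in PC9. In S100A9-inh 4 fell in H1650 and 2 of 5 in PC9, where 13.8% and 26.1% of all genes were lower. KIF2C had 101, 101 and 105 CPM for BrM control, 168, 157 and 158 CPM for Tr-BrM control and 127, 124 and 129 CPM for S100A9-inh in H1650. In PC9, KIF2C stood at 94.2, 98.0 and 95.9 CPM for BrM control, 118, 124 and 126 CPM for Tr-BrM control and 128, 123 and 127 CPM for S100A9-inh. S100A9-inh was between the controls in H1650 and level with the Tr-BrM controls in PC9. The changes between the control groups were 0.65 ± 0.036 (adjusted p = 2.02e-15) and 0.35 ± 0.044 (adjusted p = 3.88e-08), and those to S100A9-inh -0.35 ± 0.035 (adjusted p = 7.55e-09) and 0.037 ± 0.043 (adjusted p = 0.491). KIF11 rose by 0.35 and 0.42 and fell by 0.22 and 0.32 in S100A9-inh. DLGAP5 rose by 0.59 and 0.36, and KIF4A by 0.11 and 0.38. KIF18A passed only between the groups of PC9 that include the BrM control, at 0.42 for the Tr-BrM control and 0.30 for S100A9-inh, except that with library size alone it also rose between the control groups of H1650 (0.17). The H1650 rise of KIF4A did not pass without BrM control replicate 3 (0.094) or without a filter (0.099), and was 0.20 with library size alone.

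The 8 genes of the central spindle and cytokinesis varied among themselves. In H1650 5 rose and 1 fell between the control groups, and their sum stayed at 1257 to 1295 against 1292 to 1309 CPM. In PC9 6 rose, and the sum went from 694 to 714 up to 1013 to 1066 CPM. S100A9-inh libraries summed to 1173 to 1232 CPM in H1650 and 898 to 949.5 CPM in PC9.

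ANLN (chr7:36389806-36453791), anillin, which organises the contractile ring, had 686, 681 and 662 CPM for BrM control, 532, 546 and 525 CPM for Tr-BrM control and 532, 509.6 and 539.7 CPM for S100A9-inh in H1650. In PC9, ANLN stood at 170.5, 169 and 171 CPM for BrM control, 303, 316 and 319.8 CPM for Tr-BrM control and 254, 286 and 285 CPM for S100A9-inh. The Tr-BrM controls were below all BrM controls in H1650 and above all of them in PC9. The change between the control groups was -0.34 ± 0.030 (adjusted p = 6.29e-11) in H1650 and 0.88 ± 0.042 (adjusted p = 1.78e-17) in PC9, the largest rise of the set there. To S100A9-inh it was -0.019 ± 0.030 (adjusted p = 0.696) and -0.19 ± 0.041 (adjusted p = 3.15e-04). S100A9-inh stood at -0.36 ± 0.030 (adjusted p = 1.95e-11) and 0.69 ± 0.042 (adjusted p = 1.44e-14) from the BrM control.

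RACGAP1, which forms the centralspindlin complex with KIF23, had 131, 132 and 135 CPM for BrM control, 198, 187 and 196 CPM for Tr-BrM control and 162, 157 and 164 CPM for S100A9-inh in H1650. In PC9, RACGAP1 stood at 121, 117 and 121 CPM for BrM control, 114, 126 and 117 CPM for Tr-BrM control and 144, 135 and 134 CPM for S100A9-inh. In H1650 the groups did not overlap, with the Tr-BrM controls highest, while in PC9 the control groups overlapped and S100A9-inh was above both. The change between the control groups was 0.55 ± 0.034 (adjusted p = 2.33e-14) in H1650 and -0.011 ± 0.046 (adjusted p = 0.857) in PC9. To S100A9-inh it was -0.27 ± 0.033 (adjusted p = 2.83e-07) and 0.21 ± 0.046 (adjusted p = 2.26e-04). KIF23, its motor partner, had 173, 157 and 162 CPM for BrM control, 184, 185 and 194 CPM for Tr-BrM control and 173, 172 and 174 CPM for S100A9-inh in H1650. In PC9, KIF23 stood at 82.7, 84.0 and 90.2 CPM for BrM control, 119, 126 and 119.8 CPM for Tr-BrM control and 91.6, 89.4 and 93.5 CPM for S100A9-inh. KIF23 went the other way from RACGAP1 in PC9, with S100A9-inh below every Tr-BrM control, at -0.41 ± 0.046 (adjusted p = 9.04e-09), and -0.12 ± 0.035 (adjusted p = 0.0119) in H1650, where it did not pass without Tr-BrM control replicate 3 (-0.095). KIF23 rose between the control groups by 0.19 and 0.51.

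KIF20B, a motor of late cytokinesis, had 59.8, 55.6 and 55.5 CPM for BrM control, 56.9, 64.2 and 61.1 CPM for Tr-BrM control and 63.8, 59.4 and 68.1 CPM for S100A9-inh in H1650. In PC9, KIF20B stood at 40.7, 40.5 and 40.5 CPM for BrM control, 45.5, 50.8 and 49.5 CPM for Tr-BrM control and 28.4, 39.4 and 38.7 CPM for S100A9-inh. In PC9 replicate 1 of S100A9-inh was far below the other two, and those lay just under the BrM controls. The change to S100A9-inh in PC9 was -0.46 ± 0.080 (adjusted p = 1.65e-05) from the Tr-BrM control, or -0.32 without replicate 1. From the BrM control it was -0.19 ± 0.081 (adjusted p = 0.0497), which was -0.053 without replicate 1 (adjusted p = 0.527) and passed in only 2 of the 9 fits that left out 1 library each. In H1650 the change from the BrM control was 0.16 ± 0.052 (adjusted p = 0.00745), and it did not pass without S100A9-inh replicate 3 (0.11).

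KIF14, a motor that recruits citron kinase to the midbody, had 35.8, 34.0 and 33.5 CPM for BrM control, 54.0, 55.8 and 58.5 CPM for Tr-BrM control and 50.5, 51.2 and 50.3 CPM for S100A9-inh in H1650. In PC9, KIF14 stood at 35.0, 33.1 and 37.1 CPM for BrM control, 42.8, 49.1 and 50.4 CPM for Tr-BrM control and 38.8, 51.8 and 50.9 CPM for S100A9-inh. S100A9-inh kept most of the rise in H1650, with 0.70 ± 0.049 (adjusted p = 3.27e-13) for the Tr-BrM control and 0.55 ± 0.049 (adjusted p = 5.59e-11) for S100A9-inh against the BrM control. In PC9 these were 0.44 ± 0.082 (adjusted p = 3.14e-05) and 0.43 ± 0.082 (adjusted p = 6.80e-05). KIF20A rose between the control groups by 0.58 and 0.66, and ECT2, which activates RhoA at the cell equator, by 0.13 and 0.63.

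TOP2A and MKI67, the genes of mitotic chromosome structure and common markers of proliferation, rose in both lines and fell in S100A9-inh in both. TOP2A had 322, 318 and 308 CPM for BrM control, 532, 557 and 542 CPM for Tr-BrM control and 444, 415 and 431 CPM for S100A9-inh in H1650. In PC9, TOP2A stood at 283, 275 and 294 CPM for BrM control, 449, 469 and 489 CPM for Tr-BrM control and 332, 408 and 399.6 CPM for S100A9-inh. The groups did not overlap, although replicate 1 of PC9 S100A9-inh was far below the other two. The rise between the control groups was 0.78 ± 0.032 (adjusted p = 1.39e-18) and 0.72 ± 0.051 (adjusted p = 2.21e-13), and the change to S100A9-inh -0.34 ± 0.031 (adjusted p = 1.42e-09) and -0.30 ± 0.051 (adjusted p = 7.72e-06). MKI67 had 409, 421 and 399 CPM for BrM control, 581, 641 and 647 CPM for Tr-BrM control and 589.7, 574 and 579.7 CPM for S100A9-inh in H1650. In PC9, MKI67 stood at 421, 406 and 431 CPM for BrM control, 534, 543 and 553 CPM for Tr-BrM control and 457, 506 and 493 CPM for S100A9-inh. In H1650 replicate 1 of the Tr-BrM controls lay among the S100A9-inh libraries, and the change was -0.10 ± 0.034 (adjusted p = 0.0269), which did not pass without Tr-BrM control replicate 2 or 3 or S100A9-inh replicate 2 or 3, and was -0.15 without Tr-BrM control replicate 1. In PC9 it was -0.16 ± 0.038 (adjusted p = 4.97e-04). The rises between the control groups were 0.61 and 0.37.

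Whether a change differed between the lines was tested as an interaction in a model of all 18 libraries, over 19076 genes. Between the control groups 32 of the 45 genes differed, 15 with a higher change in PC9 and 17 with a lower one, where 54.6% of all genes differed. Between S100A9-inh and the Tr-BrM control 29 of 45 differed, 20 higher in PC9 and 9 lower, where 40.4% of all genes differed. The median difference there was 0.09, against 0.0168 over all genes. Shares of all genes were counted for either direction together, so the split by direction has no background beside it. The differences between the control groups with the smallest p were AURKA at -1.13 ± 0.051 (adjusted p = 2.95e-22), ANLN at 1.22 ± 0.053 (adjusted p = 9.27e-23), CDK1 at 1.35 ± 0.087 (adjusted p = 4.89e-17), UBE2C at -0.59 ± 0.055 (adjusted p = 2.28e-12) and RACGAP1 at -0.56 ± 0.058 (adjusted p = 5.89e-11), each as the PC9 change minus the H1650 change. For S100A9-inh they were AURKA at 0.64 ± 0.050 (adjusted p = 5.27e-14), CCNB1 at 0.50 ± 0.046 (adjusted p = 5.27e-12), CDC25C at 1.12 ± 0.11 (adjusted p = 1.28e-11), INCENP at 0.55 ± 0.066 (adjusted p = 4.91e-09) and RACGAP1 at 0.48 ± 0.057 (adjusted p = 3.95e-09). The 20 genes with a higher change in PC9 include all of PLK1, AURKA and TPX2, the 3 passenger subunits other than BIRC5, and CDC20, UBE2C and PTTG1. The 9 with a lower change in PC9 are CDK1, BUB3, TTK, CENPE, CENPF, KIF20B, KIF23, ECT2 and ANLN. No difference passed for TOP2A, at -0.061 ± 0.065 (adjusted p = 0.456) and 0.037 ± 0.064 (adjusted p = 0.705), nor for BIRC5, at 0.020 ± 0.052 (adjusted p = 0.791) and 0.064 ± 0.051 (adjusted p = 0.349). The lines were in separate tables and their gene models can differ: 12 of the 45 identifiers had different versions.

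Other genes of the cell cycle were counted from lists of fixed names. Of 83 further mitosis genes, 51 rose and 16 fell between the control groups in H1650, and 54 rose and 11 fell in PC9. Here 32.2% of all genes were higher and 31.7% lower in H1650, and 29.6% and 30.3% in PC9. In S100A9-inh 6 rose and 42 fell in H1650 (7.23% and 50.6%, against 15.4% and 13.8% of all genes). In PC9 22 rose and 26 fell, and these 26.5% and 31.3% are near the 26.3% and 26.1% of all genes. Of the 54 genes of DNA replication and the G1/S transition, 6 rose and 39 fell between the control groups in H1650, while 39 rose and 4 fell in PC9. Their medians were -0.24 and 0.28, beside 0.43 and 0.38 for the 45 mitosis genes, so that the 2 medians had opposite signs in H1650. Whether the lists differ between the lines was not tested. In S100A9-inh 7 replication genes rose and 3 fell in H1650, which is 13.0% and 5.56% and under the shares of all genes, and 7 rose and 36 fell in PC9, which is 13.0% and 66.7%. Examples are CDC45, a helicase subunit, at 1.11 ± 0.054 (adjusted p = 2.58e-17) and -0.68 ± 0.052 (adjusted p = 3.02e-12) in the 2 steps of PC9, and MCM10, an initiation factor, at -1.17 ± 0.049 (adjusted p = 3.05e-18) between the control groups of H1650. CCND1 is among the 6 that rose there, at 0.68 ± 0.031 (adjusted p = 1.34e-17).

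Of the 24 regulators of cell cycle transcription, 7 rose and 5 fell between the control groups in H1650, which is 29.2% and 20.8%, against 32.2% and 31.7% of all genes. In PC9 9 rose and 10 fell, or 37.5% and 41.7%, against 29.6% and 30.3%. In S100A9-inh 2 rose and 3 fell in H1650 (8.33% and 12.5%, against 15.4% and 13.8%), and 7 rose and 7 fell in PC9 (29.2% each, against 26.3% and 26.1%). MYBL2, the B-MYB factor that acts on CHR promoters, changed by -0.34 ± 0.036 (adjusted p = 2.03e-09) between the control groups in PC9 and by 0.26 ± 0.036 (adjusted p = 5.13e-07) in S100A9-inh, the same directions as FOXM1 there. This covers PC9 alone, as MYBL2 was not among the 4 regulators with the smallest p in these comparisons of H1650. Of the CDK inhibitors, 6 of 6 tested rose between the control groups in H1650, and 1 rose and 4 fell of 7 in PC9. In S100A9-inh 4 of 6 fell in H1650 and 5 of 7 rose in PC9. The shares of all genes are those given above for the regulators, and 6 or 7 genes are too few to set against them. CDKN1A, the p21 inhibitor, changed by 0.49 ± 0.031 (adjusted p = 3.12e-14) in H1650 and -2.04 ± 0.064 (adjusted p = 4.06e-22) in PC9 between the control groups, and by -0.080 ± 0.030 (adjusted p = 0.0484) and 0.90 ± 0.068 (adjusted p = 1.91e-12) in S100A9-inh. For the small H1650 fall the S100A9-inh and Tr-BrM control libraries overlapped, and it was not recomputed under other settings.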

How the data were processed

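Total RNA of 18 libraries was extracted, poly-A selected and made into TruSeq-type libraries, per the labels' protocols. For each line the files deposited by the authors hold unnormalized whole-number counts of reads, 1 row per gene. Per the submitters' processing notes, the tools were STAR, R 4.0.1 and DESeq2 1.28.1 with the genome build GRCh38. How reads were counted, with which annotation and whether by strand is not stated, which bears on overlapping genes.

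Libraries were grouped by condition, treatment and line. Raw counts of the 9 libraries of a line entered 1 model in edgeR 4.0.16 (R 4.3.3) with TMM factors, the filterByExpr filter and the quasi-likelihood test. P-values were adjusted by Benjamini-Hochberg over all genes tested, with a threshold of 0.05. The SE was derived from the log2 fold change and its F statistic. Differences between lines were interaction contrasts in a model of 18 libraries. RPKM used summed exon lengths of GENCODE 29, and promoter windows came from RefSeq (GRCh38.p14). With 17403497 to 27112362 counts per library, precision is low for genes with few counts, such as PRC1 and NUSAP1. The scripts were tested on simulated data. Alternatives were 3 other scalings, 2 other filters, DESeq2 1.42.0, limma-voom (limma 3.58.1), a fold threshold, fits of 2 groups and leaving out each library.

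The 45 genes and the other lists were chosen with earlier results of these data known. Values in every library are given for S100A9, the 3 largest called rises and falls per line and comparison, the gene with the most counts of each role, genes called in opposite directions in the lines, and the 5 smallest interaction p-values per contrast. Examples from other lists are among the 4 smallest p-values of a line and comparison, or are regulators.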

Additional observations from a re-analysis of the deposited data

Results flagged for a closer look

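The change of these genes differed between PC9 and H1650 in a test of the difference itself (interaction contrast in edgeR, PC9 change minus H1650 change on the log2 scale). Between Tr-BrM control and BrM control the difference was 1.35 ± 0.087 (adjusted p = 4.89e-17) for CDK1, 1.22 ± 0.053 (adjusted p = 9.27e-23) for ANLN and 0.47 ± 0.068 (adjusted p = 1.08e-07) for PTTG1, each lower in H1650 and higher in PC9. The H1650 fall of PTTG1 was only -0.11, with overlapping libraries, and passed in 5 of the 9 fits that left out 1 library each. The difference was -0.60 ± 0.065 (adjusted p = 1.86e-10) for AURKB, which went the other way in each line. AURKA differed by -1.13 ± 0.051 (adjusted p = 2.95e-22), UBE2C by -0.59 ± 0.055 (adjusted p = 2.28e-12) and RACGAP1 by -0.56 ± 0.058 (adjusted p = 5.89e-11), with smaller changes in PC9.

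Between S100A9-inh and the Tr-BrM control the genes were lower in H1650 and higher in PC9. The difference was 1.12 ± 0.11 (adjusted p = 1.28e-11) for CDC25C, 0.64 ± 0.050 (adjusted p = 5.27e-14) for AURKA, 0.55 ± 0.066 (adjusted p = 4.91e-09) for INCENP and 0.50 ± 0.046 (adjusted p = 5.27e-12) for CCNB1. It was 0.48 ± 0.057 (adjusted p = 3.95e-09) for RACGAP1, 0.44 ± 0.060 (adjusted p = 6.47e-08) for CDCA8, 0.42 ± 0.079 (adjusted p = 2.64e-05) for NDC80 and 0.35 ± 0.056 (adjusted p = 1.90e-06) for HJURP. Every one of the 3 S100A9-inh libraries lay below the Tr-BrM controls in H1650 for these 8 genes, and every one lay above them in PC9 except replicate 1 for NDC80. These genes were picked for opposite calls in the same libraries, so this separation is no further evidence.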

How the results depend on the processing

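With only changes of at least 0.5 on the log2 scale counted, the higher and lower genes numbered 19 and 1 between the control groups in H1650, 0 lower in S100A9-inh against the Tr-BrM control there, and 6 and 1 against the BrM control. In PC9 they numbered 17 and 0, 1 and 0, and 8 and 0. No share of all genes at this cut was counted beside them. The lower genes of PC9 S100A9-inh against the BrM control went from 2 to 1 with upper quartile scaling, library size alone, a minimum of 5 CPM, DESeq2 and a fit of only 2 groups, since KIF20B no longer passed, and the cause was not tested. Leaving out 1 library each gave 1 to 2 there, and 0 to 1 higher genes in H1650 S100A9-inh against the Tr-BrM control. Every other count of genes stayed within 1.5 times under the scalings, filters, tools and left-out libraries. Of 216 calls of single genes over the 3 comparisons and both lines, 194 were kept in all 9 fits that left out 1 library each and 22 were lost in at least 1. Besides the losses given beside the genes above, these were KIF14 in H1650 S100A9-inh against the Tr-BrM control, CDC25C, MAD2L1, KIF11 and ECT2 there against the BrM control, CDC25B between the PC9 control groups and FOXM1 in PC9 S100A9-inh against the BrM control. Under the other scalings, filters, tools and fits 208 were kept throughout and 8 were lost in some (PTTG1, KIF4A and MAD2L1 in H1650, and CDC25B, BUB1B, NUF2, HJURP and KIF20B in PC9). Of 51 values that did not pass, 8 passed without some library and 10 under some other setting. Of 1284 recomputed values of the genes taken by the rule for values in every library and of promoter shares, 0 reversed, 28 no longer passed (PTTG1, KIF20B, HJURP and NDC80) and 4 promoter shares moved: counted before the start only, a CHR was in 51.1% of the windows of the set against 14.3% of all, and CCAAT and E2F were in 32.0% and 2.79% of all. No paired analysis was possible because the labels give the libraries no replicate numbers. Small changes of genes with few counts are limited by depth.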
